A study of Mus musculus with 12 samples.

Results

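Cholesterol handling was followed through 37 genes in mouse bone marrow-derived macrophages: 18 enzymes of cholesterol synthesis, 6 genes of the SREBP pathway and of sterol transfer, 7 LXR receptors and targets, 3 genes of intracellular cholesterol transport and storage, and 3 of fatty acid synthesis. The members were chosen by name for their known roles, but with earlier results of these data known. All 37 were found among the 54532 genes of the deposited count table, and all 37 passed the low-count filter that left 13800 genes for testing. The marrow came from 8-week-old male mice and was cultured in M-CSF at 50 ng/mL, which drives marrow precursors to become macrophages. RNA was sequenced from 4 groups of 3 libraries: Itga9-Lyz2-cKO cells (cKO) with Pg, cKO control cells, Itga9-Lyz2-cHet cells (cHet) with Pg, and cHet control cells. Pg is the labels' name for the stimulating agent, given for 2 hours at a multiplicity of infection written as 1:20. The name Lyz2 in both genotypes is that of a myeloid lysozyme gene whose locus is widely used to drive Cre recombinase, so the cHet cells are no unmodified wild type, and a wild-type group was not analysed here. It is not given in the labels if replicate libraries are from different animals, so p-values reflect library-to-library spread, which could be technical only.

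Cells make cholesterol from acetyl-CoA by the mevalonate pathway, which ends in farnesyl diphosphate, and by a squalene and sterol segment, which closes the ring and trims lanosterol to cholesterol. When membranes hold little sterol, the SCAP protein escorts SREBP precursors out of the endoplasmic reticulum, and the cleaved SREBP switches on these enzymes; when sterol is plentiful, INSIG proteins hold SCAP back. LXR receptors sense oxysterols and switch on genes that export cholesterol, chiefly ABCA1 and ABCG1. Macrophages rely on this export because they take up much cholesterol by engulfing lipoproteins and dead cells.

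The promoters of 5 members are shown because 4 of them belong to genes whose change under Pg passed the test in both genotypes, and the fifth, Hmgcs1, is the one member promoter that held the sterol regulatory element core. Each runs 5′ to 3′ on the gene's own strand, 250 bases before to 50 after the annotated start (RefSeq, build GRCm38.p6). Capitals mark the CCAAT box (CCAAT, either strand), the E-box (CACGTG) and the sterol regulatory element core (TCACNCCAC, either strand).
Hmgcs1, chr13:119690101-119690400, plus strand: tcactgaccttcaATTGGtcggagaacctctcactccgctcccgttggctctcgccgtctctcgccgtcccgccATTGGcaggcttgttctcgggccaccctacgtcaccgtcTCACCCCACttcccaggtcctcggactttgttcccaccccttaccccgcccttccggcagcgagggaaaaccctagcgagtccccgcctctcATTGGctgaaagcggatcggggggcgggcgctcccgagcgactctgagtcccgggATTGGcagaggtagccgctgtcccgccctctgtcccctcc
Mvk, chr5:114444019-114444318, plus strand: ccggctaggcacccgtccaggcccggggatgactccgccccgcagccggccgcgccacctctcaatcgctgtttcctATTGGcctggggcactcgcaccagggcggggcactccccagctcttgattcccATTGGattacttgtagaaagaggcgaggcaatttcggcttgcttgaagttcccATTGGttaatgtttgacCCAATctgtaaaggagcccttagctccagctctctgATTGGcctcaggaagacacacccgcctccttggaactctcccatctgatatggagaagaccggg
Mvd, chr8:122443373-122443672, minus strand: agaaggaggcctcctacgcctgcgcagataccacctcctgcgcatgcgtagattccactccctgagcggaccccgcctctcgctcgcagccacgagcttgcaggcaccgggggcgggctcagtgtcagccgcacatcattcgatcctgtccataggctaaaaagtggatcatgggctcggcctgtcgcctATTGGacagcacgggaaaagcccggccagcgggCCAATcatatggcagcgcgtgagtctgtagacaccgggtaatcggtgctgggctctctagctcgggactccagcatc
Lss, chr10:76531355-76531654, plus strand: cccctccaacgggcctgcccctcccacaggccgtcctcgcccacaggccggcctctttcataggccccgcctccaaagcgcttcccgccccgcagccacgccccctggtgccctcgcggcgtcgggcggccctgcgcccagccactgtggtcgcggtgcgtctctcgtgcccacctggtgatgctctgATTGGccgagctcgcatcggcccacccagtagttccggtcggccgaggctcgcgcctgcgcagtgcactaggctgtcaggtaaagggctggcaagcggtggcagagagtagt
Abca1, chr4:53159846-53160145, minus strand: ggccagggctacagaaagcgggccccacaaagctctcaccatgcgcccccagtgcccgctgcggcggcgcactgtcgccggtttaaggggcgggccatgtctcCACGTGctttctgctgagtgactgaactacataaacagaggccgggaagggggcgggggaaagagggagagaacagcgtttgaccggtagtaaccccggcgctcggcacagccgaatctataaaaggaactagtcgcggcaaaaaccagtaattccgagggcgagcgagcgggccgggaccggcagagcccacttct

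Mvk held 5 CCAAT boxes, Mvd 2 and Lss 1, while Abca1 held none and had an E-box that starts 147 bases before the start site. In Hmgcs1 the sterol regulatory element core began 137 bases before the start site and did not overlap the 4 CCAAT boxes. RefSeq promoters were available for 29 of the 37 members, 40 promoters in all. The CCAAT box was in 24 of these 40, against 37.4% of all 32851 promoters, and the GC box (GGGCGG, either strand) in 28 of 40, against 35.7%. The E-box was in 7 of 40, against 7.15% of all promoters. The sterol regulatory element core was in 1 of 40, against 1.24%. A degenerate kappaB motif was in 7 of 40, against 11.2%, and the DR4 element, the repeat that LXR dimers bind, was in none, against 0.0548%. These matches describe letters in a 300-base window and say nothing of binding.

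The 12 libraries held 14527674 to 16793803 counts each. Itga9, the gene named in both genotypes, was lower in cKO, with a log2 difference of -1.46 ± 0.26 (standard error) averaged over both treatments (adjusted p 0.0118), and was still counted in all 6 cKO libraries. The 10 macrophage markers summed to 11323 to 15200 CPM (read counts scaled to a common library total, with TMM-scaled library sizes), while the 7 adipocyte markers summed to at most 0.634 CPM, with Cidec and Lep at 0. The 8 neutrophil markers summed to 416 to 718 CPM, the 8 T and NK cell markers to 29.2 to 46.0 CPM and the 7 B and plasma cell markers to 11.8 to 22.3 CPM. In each group 1 library stood apart in many genes, marked by Itgax, an integrin gene chosen after its values were seen. Itgax was at 48.0 CPM in cKO Pg 3, against 103 to 121 CPM in the other cKO Pg libraries, and at 125 CPM in cKO control 1, against 42.4 and 45.1 CPM in the other cKO control libraries. It was at 59.3 CPM in cHet Pg 1, against 132 and 137 CPM in the other cHet Pg libraries, and at 115 CPM in cHet control 1, against 36.2 and 37 CPM in the other cHet control libraries. Pairs of libraries of a group that included 1 of these 4 differed by a chi-square per gene of 12.8 to 17.2, and pairs without them by 2.59 to 5.31. Il1b, an inflammatory cytokine gene, was at 1411 to 1657 CPM in all 6 Pg libraries and at 112 to 192 CPM in all 6 control libraries, so these 4 libraries followed their treatment labels for Il1b. Results are given with all 12 libraries. For many members they are also given in 2 fits added after the values were seen, one without these 4 libraries and one of all 12 with the log2 Itgax level as a covariate. The 8 libraries kept in the first of these pair high Itgax with Pg and low Itgax with control throughout. Pg and the Itgax level cannot be told apart there. The 4 libraries left out were picked from these same counts, so p-values of that fit describe the kept libraries only. They are no independent test of Pg or genotype. Itgax was also uneven by treatment in the covariate fit, high in most Pg libraries and low in most control libraries. Its slope rests largely on the same 4 libraries, so its p-values carry the same limit. Whether cells of a type were fewer or held less of an RNA cannot be told apart in bulk libraries.

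Counts per kilobase of gene length ranked the members over a wide range. Apoe, the apolipoprotein that macrophages secrete, stood at 8868 CPM per kilobase over the 12 libraries, far above Npc2 at 193 and Abca1 at 190 CPM per kilobase. Among paired genes, Insig1 was at 77.3 CPM per kilobase against 4.54 for Insig2, Srebf2 at 34.2 against 15.4 for Srebf1, Nr1h2 at 39.2 against 14.2 for Nr1h3, and Scd2 at 18.0 against 1.32 for Scd1. Of the 18 synthesis enzymes Hmgcs1 was highest, at 23.4 CPM per kilobase. Fdps was lowest, at 0.293 CPM per kilobase, and held only 6 to 36 counts per library. Part of its exons also lies in a same-strand gene, so its level and rank are uncertain.

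**Figure D1:**
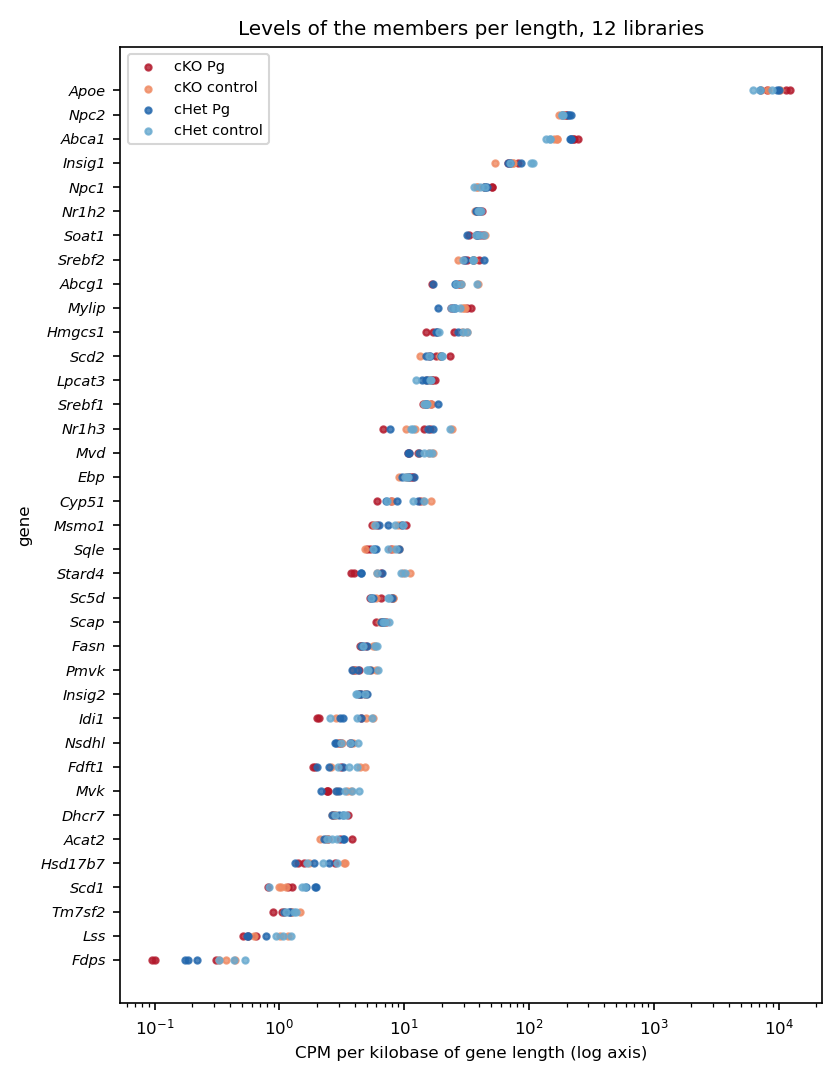
Levels of the 37 members in CPM per kilobase of gene length (log axis), 1 point per library, coloured by group, genes ordered by their mean. Apoe lies highest at a mean of 8868 and Fdps lowest at 0.293 CPM per kilobase.

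The first question of the design is what Pg did to these genes in each genotype. P-values came from the quasi-likelihood test of edgeR, adjusted over all 13800 genes, with a threshold of 0.05. With Pg, 6 of 37 members (16.2%) passed the test in cKO and 6 (16.2%) in cHet, with 2 up and 4 down in each, where 34% and 36.1% of all 13800 genes passed. The members' share lay below that background, and the list itself was not tested. In both genotypes Mvk, Mvd, Fdps and Lss of the synthesis pathway fell and the exporter gene Abca1 rose. Npc1 also rose in cKO and Npc2 in cHet. Values after ± are standard errors. The median log2 fold change of the members was -0.06 in cKO and -0.14 in cHet, against -0.00 and -0.01 for all tested genes. For the 18 synthesis enzymes it was -0.37 in cKO and -0.23 in cHet, with values below 0 for 15 of 18 in cKO and 16 of 18 in cHet. The spread between libraries was wider for these enzymes: their median standard error was 0.213 in cKO and 0.211 in cHet, against 0.139 and 0.138 for all tested genes. Each genotype's response uses its own controls, so the values of both responses come from separate libraries. Pg and control libraries did not overlap for 4 members above the controls and 4 below in cKO, against 22% and 23.1% of all genes, and for 3 above and 6 below in cHet, against 22.9% and 24.3%. The count of passing members in cKO changed with the library left out. It was 1 without cKO control 2, 2 without cKO control 3 or cKO Pg 1, 3 without cKO Pg 2 and 10 without cKO control 1. The cHet count moved as well, over the range given further below. Leaving out a library weakens the test for every gene, and shares of all genes in these fits are not given. These counts are therefore not read as a result about the members. Alternatives are counted below over scaling, filter, tool, replicate block and single libraries left out, and the 2 fits added later stand apart from these counts. Some of them leave out a library outside the groups compared. That hardly moves the log2 value and acts mainly through the shared spread, so such alternatives are weak checks.

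The balance of rises and falls depends on the scaling. With TMM, 49.7% of all passing genes in cKO and 50% in cHet were higher with Pg. With library-size scaling the median gene shifted by -0.24 in both genotypes, the share that was higher was 18.7% in cKO and 19.1% in cHet, and the members that passed were 1 up and 14 down in cKO, against 8.91% of all genes up and 38.7% down, and 1 up and 15 down in cHet, against 9.33% up and 39.4% down. The rise of Abca1 kept its direction under both scalings. The falls of Mvk, Mvd, Fdps and Lss did too, but a downward shift could not have turned them. For these falls the change of scaling is no check.

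**Figure D2:**
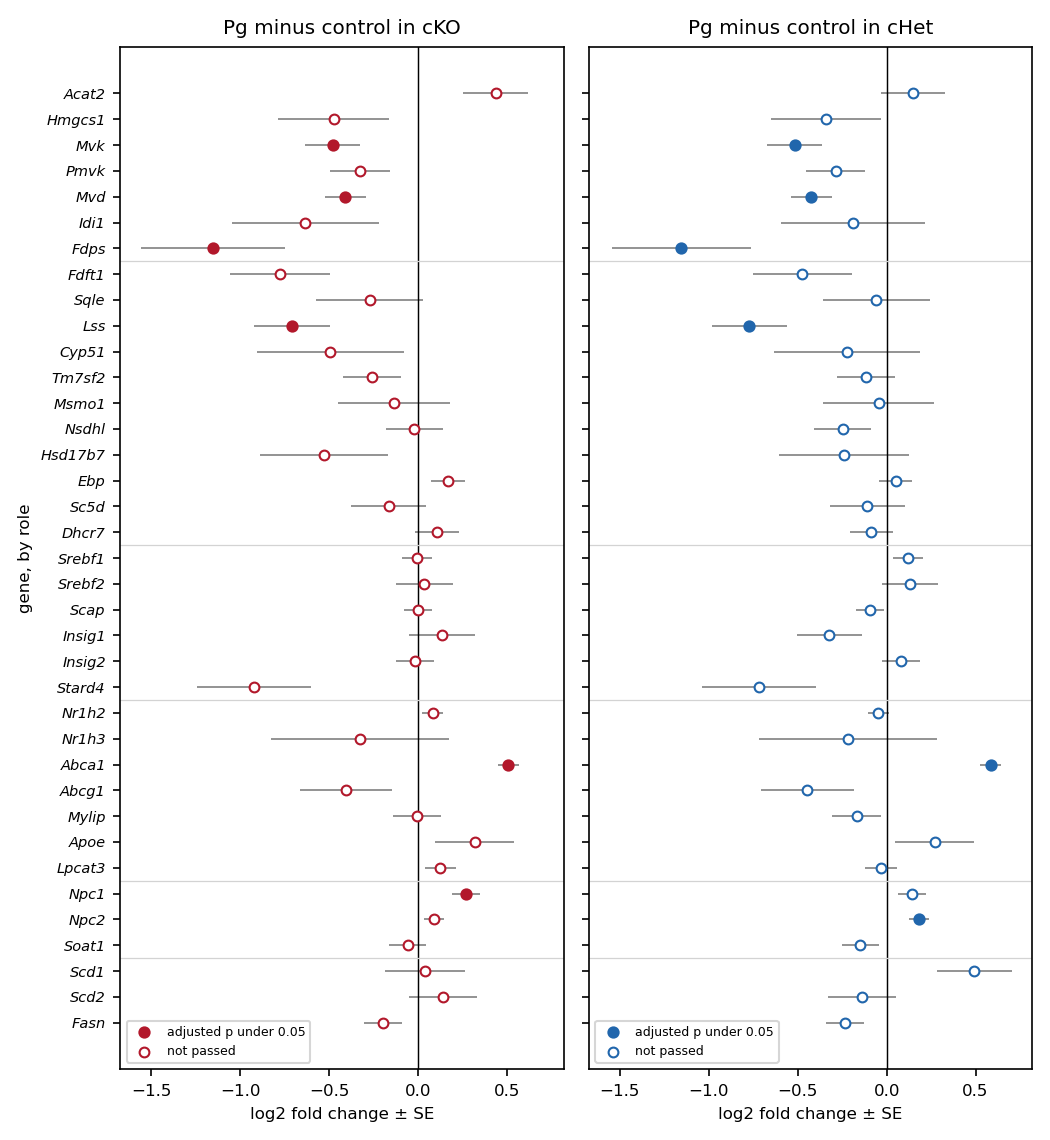
Log2 fold change with Pg against control for each member, in cKO (left) and cHet (right), with bars of 1 standard error; filled points passed an adjusted p of 0.05. Filled points lie left of 0 for Mvk, Mvd, Fdps and Lss and right of 0 for Abca1 in both panels.

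In the mevalonate segment 3 of 7 enzymes fell in each genotype, against 17.1% of all genes in cKO and 18% in cHet, and none rose. Mvk (ENSMUSG00000041939, chromosome 5, 114444269 to 114460591, plus strand, build mm10) encodes mevalonate kinase, which adds the first phosphate to mevalonate. It was at 6.39, 6.47 and 6.54 CPM in the cKO Pg libraries, against 7.74, 10.0 and 9.34 CPM in the cKO controls, and at 7.59, 5.77 and 8.10 CPM in the cHet Pg libraries, against 8.96, 11.5 and 10.3 CPM in the cHet controls. Every Pg library lay below every control library of its genotype. The log2 fold change was -0.48 ± 0.16 in cKO (adjusted p 0.0246) and -0.52 ± 0.15 in cHet (adjusted p 0.0142). The cKO call was lost without any 1 of the cKO libraries other than control 1 (log2 values -0.49 to -0.40, adjusted p 0.0513 to 0.107). The cHet call was lost without cHet Pg 2 (-0.39, adjusted p 0.0815) or cHet control 2 (-0.42, adjusted p 0.0734), and with the Itgax covariate (-0.37, adjusted p 0.0597).

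Mvd (ENSMUSG00000006517, chromosome 8, 122433601 to 122443422, minus strand), whose decarboxylase turns mevalonate diphosphate into isopentenyl diphosphate, was at 20.2, 20.1 and 24.1 CPM in the cKO Pg libraries and 24.4, 31.7 and 29.5 CPM in the cKO controls. In cHet it was at 24.5, 20.1 and 20.5 CPM with Pg and 26.7, 29.5 and 31.3 CPM in controls. Neither pair of groups overlapped, although the highest cKO Pg library, the one apart in Itgax, came close to the lowest cKO control, also apart in Itgax. The log2 fold changes were -0.41 ± 0.11 in cKO (adjusted p 0.00996) and -0.42 ± 0.11 in cHet (adjusted p 0.00766), and the response in cKO minus that in cHet was 0.01, with a 95% interval from -0.33 to 0.35. The cKO call was lost without cKO control 2 (-0.33, adjusted p 0.0584), and the cHet call held in all 19 alternatives.

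Fdps (ENSMUSG00000059743, chromosome 3, 89093588 to 89101959, minus strand) encodes farnesyl diphosphate synthase, the last enzyme of the segment. Its level was 0.403, 0.427 and 1.31 CPM in the cKO Pg libraries, against 1.37, 1.56 and 1.87 CPM in the cKO controls, and 0.914, 0.774 and 0.737 CPM in the cHet Pg libraries, against 1.39, 1.81 and 2.24 CPM in the cHet controls. The groups did not overlap, and the log2 fold changes of -1.16 ± 0.41 (adjusted p 0.0354) in cKO and -1.15 ± 0.39 (adjusted p 0.029) in cHet were the largest falls of any member. They rest on 6 to 36 counts per library, and 1124 of the gene's 4208 annotated exon bases also lie in a same-strand gene, Gm43738, which itself had no counts. How reads in these shared bases were handled is not known here, so the level of Fdps is uncertain. The call was lost in 5 of 18 alternatives in cKO, 4 of them without cKO Pg 1, Pg 2, control 2 or control 3 (-1.17 to -0.87, adjusted p 0.0689 to 0.146). In cHet it was lost in 4 of 18, without cHet Pg 2, Pg 3, control 2 or control 3 (-1.16 to -0.98, adjusted p 0.0643 to 0.113), and with the Itgax covariate it was at -0.76 (adjusted p 0.139).

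The other 4 enzymes of the segment did not pass. Hmgcs1, which makes HMG-CoA, was at 69.3, 77.7 and 115 CPM in the cKO Pg libraries and 84.1, 133 and 148 CPM in the cKO controls, and at 125, 84.6 and 82.4 CPM in the cHet Pg libraries and 86.9, 148 and 135 CPM in the cHet controls. In each group the library apart in Itgax broke the pattern: it was the highest of the Pg groups and the lowest of the control groups. With all libraries the log2 values were -0.48 ± 0.31 and -0.34 ± 0.31 (adjusted p 0.29 and 0.45), and without the 4 libraries -0.93 and -0.76 (adjusted p 4.3e-12 and 2.26e-10), in cKO and cHet in that order. With the covariate Hmgcs1 was at -0.26 in cKO and 0.10 in cHet (adjusted p 0.00276 and 0.288), so its sign in cHet turned. Idi1, the isomerase of isopentenyl diphosphate, showed the same order of libraries, with log2 values of -0.64 ± 0.41 in cKO and -0.19 ± 0.41 in cHet (adjusted p 0.285 and 0.763). Pmvk, the second kinase of the segment, was at -0.33 ± 0.17 in cKO and -0.29 ± 0.17 in cHet (adjusted p 0.155 and 0.2). Pmvk without the 4 libraries was at -0.52 in cKO and -0.50 in cHet (adjusted p 0.015 and 0.0189), and with the covariate it did not pass, at -0.22 and -0.09. Acat2, the thiolase that opens the route, was the one enzyme of the segment with values above 0 in both genotypes, 0.44 ± 0.18 in cKO and 0.15 ± 0.18 in cHet (adjusted p 0.0761 and 0.568). With the covariate Acat2 passed in cKO, at 0.49 (adjusted p 0.0182).

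**Figure D3:**
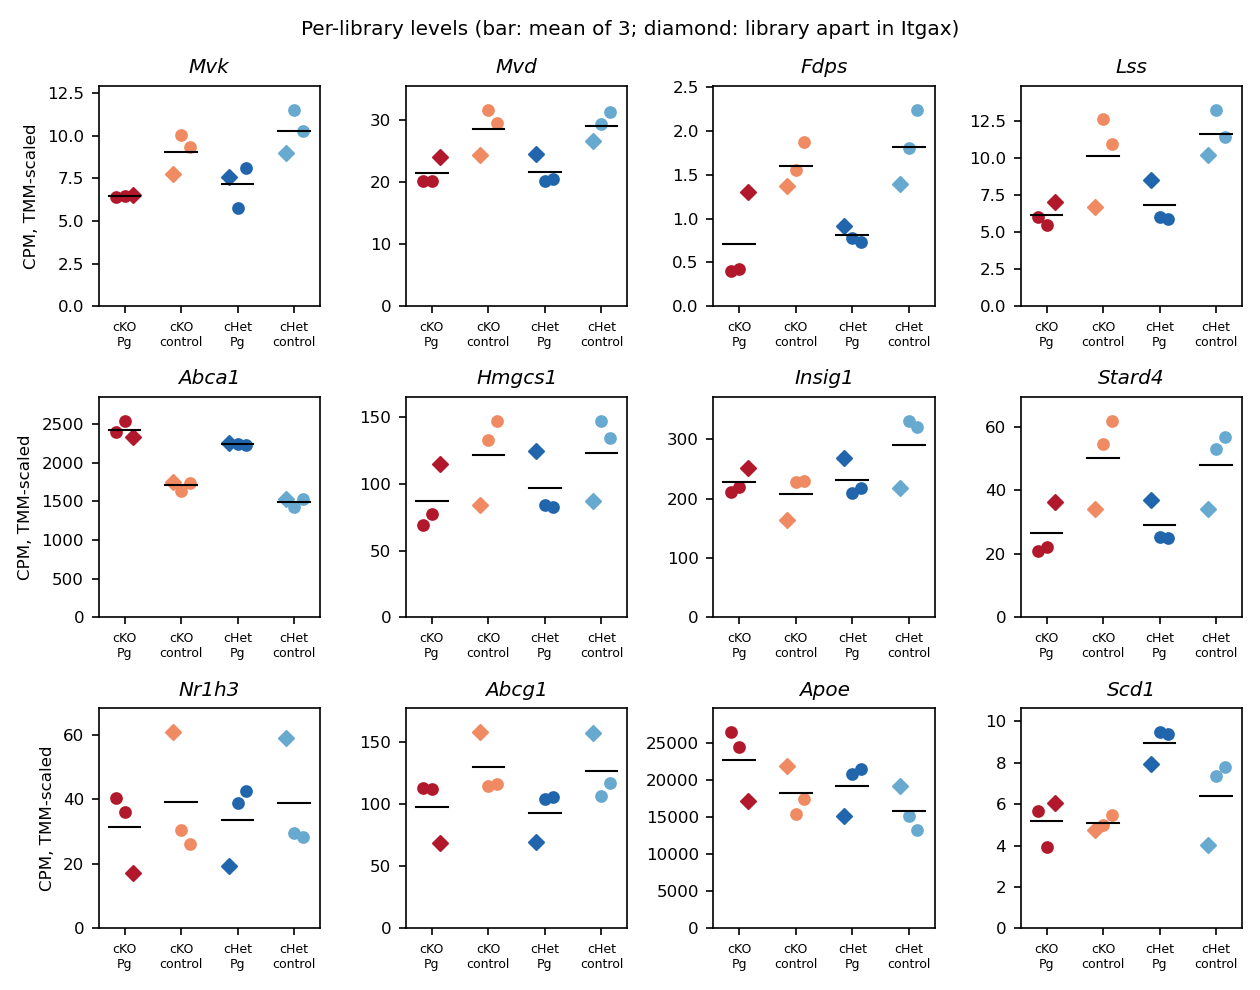
Levels in CPM of 12 members in each library, with the groups in the order cKO Pg, cKO control, cHet Pg, cHet control, a bar at the mean of 3 libraries and a diamond for the library of each group that stands apart in Itgax. The diamonds of Hmgcs1 and Stard4 lie highest in the Pg groups and lowest in the control groups, those of Nr1h3 and Abcg1 the other way round, and those of Abca1 close to the other libraries.

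Of the 11 enzymes of the squalene and sterol segment 1 (9.09%) fell in each genotype, Lss, against 17.1% of all genes in cKO and 18% in cHet, and none rose. Lss (ENSMUSG00000033105, chromosome 10, 76531588 to 76557138, plus strand), lanosterol synthase, closes the sterol ring. It was at 6.05, 5.48 and 7.02 CPM in the cKO Pg libraries, against 6.72, 12.6 and 11 CPM in the cKO controls, and at 8.5, 6.05 and 5.89 CPM in the cHet Pg libraries, against 10.2, 13.3 and 11.5 CPM in the cHet controls. The cHet groups did not overlap; in cKO the control library apart in Itgax lay below the highest Pg library. The log2 fold changes were -0.71 ± 0.21 in cKO (adjusted p 0.017) and -0.77 ± 0.21 in cHet (adjusted p 0.0087). In cKO the call was lost without cKO Pg 1, Pg 2, control 2 or control 3 (-0.69 to -0.52, adjusted p 0.0543 to 0.0933), and in cHet it held in all 19 alternatives.

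The enzyme next in line for the test was Fdft1, squalene synthase, with a log2 value of -0.78 ± 0.28 in cKO (adjusted p 0.0533) and -0.48 ± 0.28 in cHet (adjusted p 0.219). Its level was 7.80, 8.11 and 13.3 CPM in the cKO Pg libraries, against 10.9, 18.6 and 20.6 CPM in the cKO controls, and 13.6, 8.45 and 10.7 CPM in the cHet Pg libraries, against 12.6, 15.4 and 17.6 CPM in the cHet controls. These counts are uncertain, because 774 exon bases of Fdft1 overlap the opposite strand of Ctsb, a protease gene with a mean of 257714 counts per library against 209 for Fdft1, and the strand setting of the counting is not given. Cyp51, the lanosterol demethylase, was at -0.49 ± 0.41 in cKO and -0.22 ± 0.41 in cHet, and Sqle, squalene epoxidase, at -0.27 ± 0.30 and -0.06 ± 0.30, with adjusted p of 0.414 to 0.908 over these 4 values. The counts of Cyp51 share the strand limit, as 166 of its exon bases overlap the opposite strand of Akap9. Akap9 had a mean of 736 counts per library against 743 for Cyp51. Hsd17b7, a keto-sterol reductase, was at -0.53 ± 0.36 in cKO and -0.24 ± 0.36 in cHet (adjusted p 0.303 and 0.66). The remaining sterol enzymes, Tm7sf2, Msmo1, Nsdhl, Ebp, Sc5d and Dhcr7, lay between -0.26 ± 0.16 for Tm7sf2 and 0.17 ± 0.09 for Ebp in cKO, and between -0.25 ± 0.16 for Nsdhl and 0.05 ± 0.09 for Ebp in cHet. Tm7sf2 shares 532 exon bases with a same-strand gene, Vps51, at a mean of 55.2 counts against 105 for Tm7sf2, so its level is uncertain. Dhcr7, whose reductase forms cholesterol in the last step of one branch, was at 15.8, 20.5 and 15.5 CPM in the cKO Pg libraries, against 16.7, 16.0 and 15.5 CPM in the cKO controls, and at 15.4, 18.8 and 17.5 CPM in the cHet Pg libraries, against 19.9, 18.8 and 16.2 CPM in the cHet controls, and both pairs of groups overlapped.

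None of the 6 genes of SREBP control and sterol transfer passed the test of edgeR in either genotype, where 34% of all genes did in cKO and 36.1% in cHet. At an unadjusted p under 0.05 there was 1 in cKO and 0 in cHet, and DESeq2 called Stard4 in cKO and 0 in cHet. No share of all genes is given for these counts. Srebf2, the SREBP gene that drives cholesterol synthesis, was at 216, 228 and 284 CPM in the cKO Pg libraries, against 195, 254 and 261 CPM in the cKO controls, and at 314, 221 and 255 CPM in the cHet Pg libraries, against 211, 257 and 254 CPM in the cHet controls. The groups overlapped, with log2 values of 0.03 ± 0.16 in cKO (95% interval -0.32 to 0.39) and 0.13 ± 0.16 in cHet (-0.22 to 0.48). Both signs turned without the 4 libraries apart in Itgax, to -0.21 in cKO and -0.10 in cHet (adjusted p 0.00671 and 0.187), while the covariate gave 0.14 in cKO and 0.35 in cHet (adjusted p 0.055 and 5.56e-05). Srebf1, whose protein drives fatty acid genes, had log2 values of -0.01 ± 0.09 in cKO (-0.19 to 0.17) and 0.12 ± 0.09 in cHet (-0.06 to 0.30), and 109 of its exon bases overlap the opposite strand of Rai1. Scap lay at 0.00 ± 0.08 in cKO and -0.09 ± 0.08 in cHet, and Insig2 at -0.02 ± 0.11 and 0.08 ± 0.11. With the covariate Srebf1 and Scap passed in cHet, at 0.21 and -0.18 (adjusted p 0.0188 and 0.0476).

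Stard4, a carrier of sterol between membranes, had the widest Pg difference of these 6 genes. It was at 21.0, 22.2 and 36.2 CPM in the cKO Pg libraries, against 34.0, 54.5 and 61.9 CPM in the cKO controls, and at 37, 25.1 and 25.1 CPM in the cHet Pg libraries, against 34.0, 52.9 and 56.8 CPM in the cHet controls. In both genotypes the highest Pg library and the lowest control library were those apart in Itgax, and they overlapped. The log2 values were -0.92 ± 0.32 in cKO (adjusted p 0.0558) and -0.72 ± 0.32 in cHet (adjusted p 0.118), and without the 4 libraries -1.43 and -1.13 (adjusted p 6.95e-14 and 8.87e-12). With the covariate they were -0.71 in cKO and -0.26 in cHet (adjusted p 3.78e-08 and 0.0204). Insig1, which retains SCAP and is itself an SREBP target, was at 211, 219 and 252 CPM in the cKO Pg libraries, against 164, 229 and 229 CPM in the cKO controls, and at 268, 209.7 and 219 CPM in the cHet Pg libraries, against 218, 331 and 321 CPM in the cHet controls. Its log2 values had opposite signs, 0.13 ± 0.18 in cKO and -0.32 ± 0.18 in cHet, and neither passed (adjusted p 0.638 and 0.213). Insig1 without the 4 libraries was at -0.08 in cKO and -0.61 in cHet (adjusted p 0.234 and 1.26e-10), and with the covariate at 0.28 in cKO and -0.03 in cHet (adjusted p 0.00019 and 0.708).

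Among the LXR receptors and targets 1 of 7 rose in each genotype, Abca1, against 16.9% of all genes in cKO and 18% in cHet, and none fell. Abca1 (ENSMUSG00000015243, chromosome 4, 53030787 to 53159895, minus strand), the pump that loads cholesterol onto lipid-poor apolipoprotein, was at 2399, 2545 and 2332 CPM in the cKO Pg libraries, against 1750.2, 1631 and 1740.2 CPM in the cKO controls. In cHet it was at 2259, 2246 and 2226 CPM with Pg, against 1527, 1429.9 and 1528 CPM in controls. All Pg libraries lay well above all control libraries, and the 4 libraries apart in Itgax sat with their groups. The log2 fold changes were 0.51 ± 0.06 in cKO (adjusted p 3.19e-06) and 0.59 ± 0.06 in cHet (adjusted p 5.64e-07), and the call held in all 19 alternatives of each comparison.

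Abcg1, the second exporter, did not pass in either genotype. It was at 113, 112 and 68.5 CPM in the cKO Pg libraries, against 158, 114 and 116 CPM in the cKO controls, and at 69.1, 104 and 105 CPM in the cHet Pg libraries, against 157, 106 and 117 CPM in the cHet controls. The Pg libraries lay below the controls in both genotypes, but by little except in the libraries apart in Itgax. The log2 values of -0.40 ± 0.26 in cKO and -0.45 ± 0.26 in cHet did not pass (adjusted p 0.28 and 0.226), and without the 4 libraries they were -0.03 and -0.09. With the covariate Abcg1 passed in both, at -0.58 in cKO and -0.80 in cHet (adjusted p 6.5e-07 and 1.56e-08). Nr1h3, which encodes LXR alpha, was at 40.5, 36.2 and 17.1 CPM in the cKO Pg libraries, against 61.0, 30.6 and 26.1 CPM in the cKO controls, and at 19.4, 38.7 and 42.6 CPM in the cHet Pg libraries, against 59.0, 29.5 and 28.5 CPM in the cHet controls. The sign of its difference depended on the 4 libraries: the log2 value was -0.33 ± 0.50 in cKO and -0.22 ± 0.50 in cHet with all libraries (adjusted p 0.678 and 0.781), and 0.44 and 0.49 without them (adjusted p 0.000488 and 0.000147). With the covariate it was -0.62 in cKO and -0.87 in cHet (adjusted p 0.00014 and 6.96e-06). Nr1h2, which encodes LXR beta, was at 133, 129 and 142 CPM in the cKO Pg libraries and 124, 128 and 129 CPM in the cKO controls, with log2 values of 0.08 ± 0.06 in cKO and -0.05 ± 0.06 in cHet, neither past the threshold.

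Apoe ranged from 13249.8 to 26470.0 CPM over the 12 libraries and its groups overlapped, with log2 values of 0.32 ± 0.22 in cKO and 0.27 ± 0.22 in cHet (adjusted p 0.322 and 0.394). Without the 4 libraries these were 0.64 and 0.57 (adjusted p 4.28e-06 and 1.26e-05), and with the covariate 0.17 in cKO and -0.04 in cHet (adjusted p 0.131 and 0.803), so the sign in cHet turned. Mylip, a ubiquitin ligase that marks lipoprotein receptors for degradation, was at -0.01 ± 0.14 in cKO and -0.17 ± 0.14 in cHet, and Lpcat3, which remodels membrane phospholipids, at 0.12 ± 0.09 and -0.03 ± 0.09. Neither passed in either genotype, although with the covariate Mylip did in cHet, at -0.34 (adjusted p 0.00837), and 334 exon bases of Lpcat3 overlap the opposite strand of Emg1.

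Of the NPC pair, which moves cholesterol out of lysosomes, each gene passed in 1 genotype with all 12 libraries. Npc1, the membrane transporter, was at 544, 544 and 473 CPM in the cKO Pg libraries, against 469, 413 and 412 CPM in the cKO controls, and at 466, 495 and 475 CPM in the cHet Pg libraries, against 473, 389 and 437 CPM in the cHet controls. It rose in cKO by 0.27 ± 0.08 (adjusted p 0.014), where the groups barely cleared each other and the call was lost without cKO Pg 1, Pg 2, control 2 or control 3 (0.24 in each, adjusted p 0.059 to 0.0667), and its value in cHet was 0.14 ± 0.08 (adjusted p 0.174). It passed in both without the 4 libraries, at 0.40 in cKO and 0.23 in cHet (adjusted p 4.98e-07 and 0.0011), and with the covariate the values were 0.22 in cKO and 0.04 in cHet (adjusted p 0.00107 and 0.619). With library-size scaling the cKO value was 0.03 (adjusted p 0.804), and 511 exon bases of Npc1 overlap the opposite strand of Rmc1. Npc2, the soluble partner, was at 1026, 1083 and 1073 CPM in the cKO Pg libraries, against 950.0, 1003 and 1043 CPM in the cKO controls, and at 1171, 1113 and 1129 CPM in the cHet Pg libraries, against 993, 1001 and 1011 CPM in the cHet controls. It rose in cHet by 0.18 ± 0.06 (adjusted p 0.0172), with no overlap, but its sign turned with library-size scaling (-0.061, adjusted p 0.393). The call was lost without cHet Pg 1 (0.16, adjusted p 0.0599), and in cKO it was 0.09 ± 0.06 (adjusted p 0.266). The difference between genotypes in these responses was 0.12 for Npc1 and -0.10 for Npc2 (adjusted p 0.722 and 0.691), so neither response was shown to differ. Soat1, which esterifies cholesterol for storage, was at -0.06 ± 0.10 in cKO and -0.15 ± 0.10 in cHet, and its groups overlapped. Leaving out the 4 libraries put it at 0.13 in cKO and -0.00 in cHet (adjusted p 0.0471 and 0.955), and with the covariate at -0.14 in cKO and -0.31 in cHet (adjusted p 0.04 and 8.22e-05).

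None of the 3 fatty acid genes passed with Pg in edgeR when all 12 libraries were used, where 34% of all genes did in cKO and 36.1% in cHet. At an unadjusted p under 0.05 there were 0 in cKO and 2 in cHet, and DESeq2 called 0 in both. The share of all genes is not given for these counts either. Scd1, a desaturase of stearoyl-CoA, was at 5.65, 3.91 and 6.05 CPM in the cKO Pg libraries, against 4.76, 4.98 and 5.49 CPM in the cKO controls, and at 7.94, 9.50 and 9.38 CPM in the cHet Pg libraries, against 4.01, 7.34 and 7.78 CPM in the cHet controls. In cHet every Pg library lay above every control library, with a log2 value of 0.49 ± 0.21 (adjusted p 0.0806), and in cKO the groups overlapped at 0.04 ± 0.23 (adjusted p 0.922). Scd2, the paralog that dominates per length, was at 0.14 ± 0.19 in cKO and -0.14 ± 0.19 in cHet, and Fasn, fatty acid synthase, at -0.20 ± 0.11 and -0.23 ± 0.11 (adjusted p 0.182 and 0.11). Scd2 without the 4 libraries passed in both genotypes, at -0.18 in cKO and -0.38 in cHet (adjusted p 0.0362 and 3.69e-05), with its sign in cKO turned, and Fasn passed in both, at -0.36 in cKO and -0.39 in cHet (adjusted p 0.000233 and 6.3e-05). With the covariate Scd2 in cKO passed at 0.27 (adjusted p 0.00127) and Scd1 in cHet at 0.74 (adjusted p 0.00443), while Fasn did not pass.

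The order of libraries within groups was shared by most synthesis genes. Of the 18 enzymes, 15 were highest in cKO Pg 3 among the cKO Pg libraries and 13 were lowest in cKO control 1 among the cKO controls, against 39.7% and 35.9% of all tested genes. In cHet, 15 were highest in cHet Pg 1 among the Pg libraries and 15 lowest in cHet control 1 among the controls, against 40.5% and 36.4% of all tested genes. Taken over all 4 groups, 12 of the 18 enzymes (66.7%) and 17 of the 37 members (45.9%) set the library apart in Itgax at the end opposite to Itgax, against 8.51% of all tested genes. These 17 were Hmgcs1, Pmvk, Mvd, Idi1, Fdps, Fdft1, Sqle, Lss, Cyp51, Msmo1, Hsd17b7, Sc5d, Srebf2, Insig1, Stard4, Scd2 and Fasn. Another 8 members (21.6%) had the library at the same end as Itgax in all 4 groups, against 9.16% of all genes: Dhcr7, Scap, Nr1h3, Abcg1, Mylip, Apoe, Npc1 and Soat1. So most enzymes and Srebf2, Insig1 and Stard4 varied together in one direction across libraries of equal genotype and treatment. LXR alpha, Abcg1, Mylip and Apoe varied in the other, as did Dhcr7, Scap, Npc1 and Soat1. Abca1, Lpcat3 and Nr1h2 kept to neither end in all 4 groups. The median log2 ratio of the enzymes in the library apart to the mean of the other libraries of its group was 0.44 in cKO Pg 3, -0.48 in cKO control 1, 0.43 in cHet Pg 1 and -0.35 in cHet control 1, where all tested genes had medians within 0.0138 of 0. The dendritic cell list, which includes Itgax, summed to 65.0 to 134 CPM in cKO Pg, 52.0 to 133 CPM in cKO control, 70.7 to 152 CPM in cHet Pg and 43.5 to 122 CPM in cHet control libraries. Itgax alone was at 48.0 to 121, 42.4 to 125, 59.3 to 137 and 36.2 to 115 CPM in these groups, in that order. It made up most of each sum, so the sums say little of the other markers on that list. The part of other cells in this order was not tested.

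**Figure D4:**
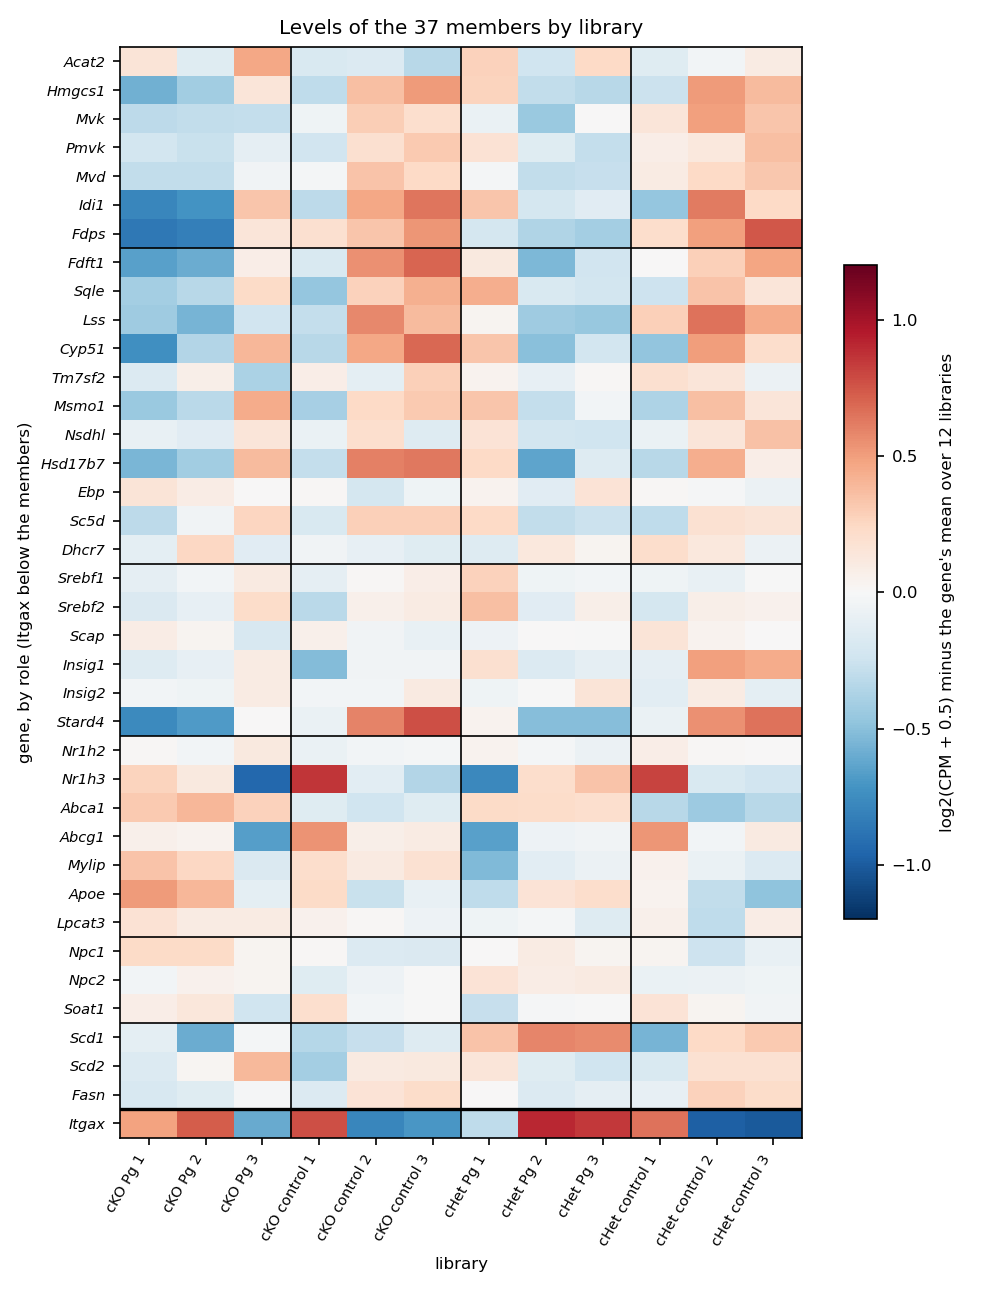
Level of each member in each library as log2(CPM + 0.5) minus the gene's mean over the 12 libraries, genes by role, with Itgax below, and the groups in the order cKO Pg, cKO control, cHet Pg, cHet control. The columns cKO Pg 3 and cHet Pg 1 are warmer than their group for most enzymes and cooler for Nr1h3, Abcg1 and Itgax, and cKO control 1 and cHet control 1 are the reverse.

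Leaving out these 4 libraries changed how many members passed with Pg. In cKO 22 members passed, against 39.6% of all genes tested in that fit; 5 were up, against 20.6% of all genes, and 17 down, against 19%. In cHet 23 passed, against 42.2%; 5 were up, against 21.6%, and 18 down, against 20.7%. Of the 18 enzymes 13 fell in cKO and 14 in cHet. Idi1 was at -1.36 in cKO and -0.64 in cHet, Fdft1 at -1.29 and -0.79, and Cyp51 at -1.12 and -0.73, all past the threshold. A fit of all 12 libraries with the log2 Itgax level as a covariate gave another picture: 16 members passed in cKO, against 40.1% of all genes, 5 up (20.4%) and 11 down (19.7%), and 16 in cHet, against 39.3%, 8 up (20.2%) and 8 down (19.1%). In cKO 7 enzymes fell and 1 rose, and in cHet 2 fell and 3 rose. There Idi1, Sqle and Msmo1 rose in cHet, by 0.42, 0.35 and 0.39 (adjusted p 0.0267, 0.00446 and 0.00339), while Cyp51 was at -0.23 in cKO and 0.34 in cHet and passed in neither. Fdft1 was at -0.59 in cKO (adjusted p 0.000674) and -0.09 in cHet (adjusted p 0.667). Mvd, Lss and Abca1 passed in both genotypes and in the same direction in all 3 fits. With the covariate the sign of the Pg difference turned for 2 of the 18 enzymes in cKO and 7 of 18 in cHet.

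**Figure D5:**
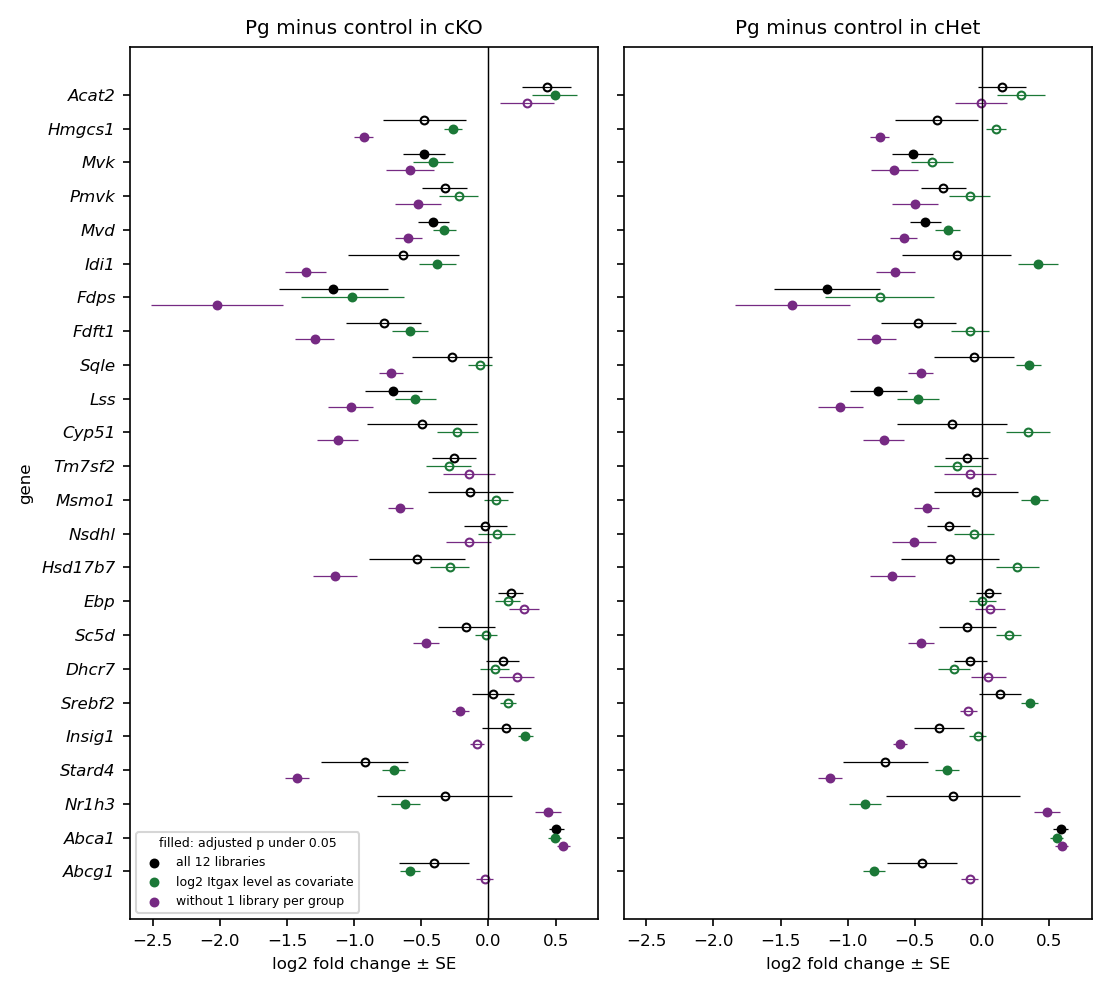
Log2 fold change with Pg against control, with bars of 1 standard error, in cKO (left) and cHet (right) for the 18 enzymes and 6 further members, from the fit of all 12 libraries (black), with log2 Itgax as a covariate (green) and without the library of each group that stands apart (purple); filled points passed an adjusted p of 0.05. Mvd, Lss and Abca1 are filled under all 3 fits in both panels, and Idi1 in cHet lies on opposite sides of 0 in the green and purple fits.

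The second question is how the genotypes differ. Under Pg and in controls none of the 37 members passed the test of edgeR, where 1.85% and 5.15% of all genes did. At an unadjusted p under 0.05 there were 3 members under Pg and 2 in controls, and DESeq2 called 1 under Pg and 2 in controls. The shares of all genes at these 2 settings are not given here, so these counts are not read as a result about the members. Libraries of the genotypes did not overlap for 2 members above cHet and 2 below under Pg, against 9.04% and 8.51% of all genes, and for 2 above and 2 below in controls, against 11.8% and 11.7%. Averaged over both treatments 2 of 37 (5.41%) passed, against 4.91% of all genes. This share was near that of all genes, so it is not read as a result about the members. Abca1 was higher, as were 2.13% of all genes, and Scd1 lower, as were 2.78%. The counts without the 4 libraries apart were 4 under Pg, 3 in controls and 5 on average, against 5.56%, 10.3% and 8.52% of all genes. With the covariate they were 7, 2 and 5, against 5.5%, 12.3% and 10.5%. Abca1 was higher in cKO, with a log2 difference of 0.15 ± 0.04 (adjusted p 0.0404); every cKO library lay above every cHet library of its treatment, and the difference was 0.11 ± 0.06 under Pg and 0.19 ± 0.06 in controls. This call was lost in 10 of 18 alternatives, among them the leaving out of any 1 library other than cKO Pg 3, cKO control 2 or cHet control 1 (0.13 to 0.16, adjusted p 0.0543 to 0.122). Scd1 was lower in cKO, with a log2 difference of -0.55 ± 0.15 (adjusted p 0.0498). Its difference was -0.78 ± 0.22 under Pg (adjusted p 0.0917), where the groups did not overlap, and -0.32 ± 0.22 in controls (adjusted p 0.484), where they did. This call was lost in 13 of 18 alternatives, among them the leaving out of any 1 library other than cKO Pg 3, cHet Pg 1 or cHet control 1 (-0.58 to -0.47, adjusted p 0.0652 to 0.145). Of the 10 stromal markers 7 were lower in cKO under Pg, 7 in controls and 8 on average, with sums of 3.77 to 5.64 CPM in cKO Pg against 32.4 to 40.3 CPM in cHet Pg libraries, and of 2.49 to 3.33 CPM in cKO control against 32.6 to 34.0 CPM in cHet control libraries; their part in the Scd1 and Abca1 differences was not tested.

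Insig1 had the widest genotype difference of the members in controls, -0.48 ± 0.18 in cKO against cHet, short of the threshold (adjusted p 0.195) with the controls overlapping by 1 library. Under Pg the difference was -0.03 ± 0.18 (adjusted p 0.974). Without the 4 libraries the control difference was -0.51 (adjusted p 5.71e-08) and with the covariate -0.42 (adjusted p 2.27e-06). Mylip was at 0.31 ± 0.10 averaged over both treatments (adjusted p 0.11), with higher cKO libraries in controls and an overlap under Pg. Without the 4 libraries its mean difference was 0.34 (adjusted p 8.03e-06) and that of Apoe 0.25 (adjusted p 0.00515). The median genotype difference of all members was -0.03 under Pg and -0.00 in controls.

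No member passed the interaction, which subtracts the cHet response to Pg from the cKO response, where 0.717% of all genes did, and 0 members had an unadjusted p under 0.05. DESeq2 also called none. The interaction was largest for Insig1, at 0.45 ± 0.26 with a 95% interval from -0.13 to 1.04, for Scd1, at -0.46 ± 0.31 (-1.11 to 0.20), and for Idi1, at -0.45 ± 0.58 (-1.76 to 0.87). For Abca1 the interval ran from -0.25 to 0.09, and for Lss from -0.57 to 0.70. A p that missed the threshold therefore does not show equal responses. Without the 4 libraries 2 members passed, Idi1 at -0.71 and Insig1 at 0.53 (adjusted p 0.0391 and 3.77e-05), against 6.26% of all genes, and with the covariate 4 passed, Hmgcs1 at -0.37, Idi1 at -0.80, Insig1 at 0.31 and Stard4 at -0.45, against 5.18% of all genes.

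A further 45 genes of the same pathways were listed by role, of which 42 could be tested and Apoc2, Cyp7b1 and Hsd3b7 could not. With Pg 11 rose and 6 fell in cKO, and 8 rose and 8 fell in cHet, which is 40.5% and 38.1% of the tested ones against 34% and 36.1% of all genes. The oxysterol enzyme Ch25h, which makes an LXR and INSIG ligand from cholesterol, was at 11.2, 9.11 and 10.3 CPM in the cKO Pg libraries, against 4.64, 5.79 and 5.72 CPM in the cKO controls, and at 11.2, 10.0 and 11.9 CPM in the cHet Pg libraries, against 3.90, 4.48 and 5.04 CPM in the cHet controls. No groups overlapped, and it rose by 0.92 ± 0.15 in cKO and 1.31 ± 0.15 in cHet (adjusted p 0.000125 and 3.29e-06). The RXR partners of LXR fell: Rxra by 0.44 ± 0.11 on the log2 scale in cKO and 0.76 ± 0.11 in cHet, and Rxrb by 0.48 ± 0.07 and 0.68 ± 0.07 (adjusted p at most 0.00526). Arl4c, a small GTPase that is an LXR target, rose by 0.57 ± 0.06 in cKO and 0.46 ± 0.06 in cHet. These calls held in all 19 alternatives for Ch25h and Arl4c.

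Of 11 genes for cholesterol esters and endosomal sterol handling, 4 rose and 2 fell in each genotype, against 16.9% of all genes higher and 17.1% lower in cKO and 18% each in cHet. Cav1, the caveolin of cholesterol-rich membrane pits, was at 17.4, 21.4 and 19.1 CPM in the cKO Pg libraries, against 5.18, 4.17 and 4.67 CPM in the cKO controls, and at 26, 26.8 and 29.5 CPM in the cHet Pg libraries, against 4.79, 3.90 and 3.18 CPM in the cHet controls. It had the largest rise of the related genes, 2.04 ± 0.14 in cKO and 2.79 ± 0.14 in cHet. Osbpl8, of the oxysterol-binding protein family, rose by 0.84 ± 0.07 and 1.09 ± 0.07, and Gramd1a, whose protein carries cholesterol from the plasma membrane to the endoplasmic reticulum, by 0.46 ± 0.08 and 0.41 ± 0.08, in cKO and cHet in that order. Its paralog Gramd1b was at 218, 241 and 226 CPM in the cKO Pg libraries, against 124, 119 and 129 CPM in the cKO controls, and at 204, 194 and 191 CPM in the cHet Pg libraries, against 136, 141 and 154 CPM in the cHet controls, a rise of 0.88 ± 0.06 in cKO and 0.45 ± 0.06 in cHet. Stard3 and Stard5, which code for sterol-binding proteins and are named after their values were seen, fell, by 0.52 ± 0.10 and 0.28 ± 0.07 on the log2 scale in cKO and 0.42 ± 0.10 and 0.20 ± 0.07 in cHet. The Stard5 call in cHet was lost without cHet Pg 1, Pg 2, control 1 or control 2 (-0.19 to -0.18, adjusted p 0.0654 to 0.0834).

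Of 18 further genes of SREBP-linked lipid synthesis, 3 rose and 2 fell in cKO (27.8% in all), and 2 rose and 2 fell in cHet (22.2%), against 34% and 36.1% of all genes. Mbtps1, the protease that makes the first cut in SREBP precursors, fell by 0.33 ± 0.07 in cKO and 0.35 ± 0.07 in cHet, and Elovl5, a fatty acid elongase, rose by 0.52 ± 0.08 and 0.44 ± 0.08, and both calls held in all 19 alternatives. Between genotypes, 2 of the 42 related genes (4.76%) passed on average over treatments, against 4.91% of all genes. This share was near that of all genes, so it is not read as a result about the related genes. Both were lower in cKO, as were 2.78% of all genes: Scarb1, a lipoprotein receptor, at -0.36 ± 0.06, and Lrp1, a receptor that takes up lipoprotein remnants, at -0.31 ± 0.06 (adjusted p 0.00224 and 0.00312). The stromal markers were lower in cKO in the same comparison, 8 of 10, at sums of 2.49 to 5.64 CPM in cKO against 32.4 to 40.3 CPM in cHet libraries, and their part in both differences was not tested.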

How the data were processed

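RNA of 12 libraries was sequenced from fragments of 370 to 420 bp, per the labels' protocols. The authors deposited raw counts per gene. Reads were handled with fastp, HISAT2 2.0.5 and featureCounts 1.5.0-p3 on build mm10, per the submitters' processing notes. The counting annotation, strandedness and handling of multi-mapped reads were not given in the sources used here. Libraries held 14527674 to 16793803 counts, and the genes kept held 99.9% of them. No 2 libraries of a group held the same counts: the chi-square per gene between them was 2.59 to 17.2. This check cannot tell if they came from separate cultures or animals.

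From these counts, genes were filtered with filterByExpr, scaled by TMM and tested in edgeR 4.0.16 (R 4.3.3) with the robust quasi-likelihood F test in 1 model of all 12 libraries, for 6 comparisons, with Benjamini-Hochberg adjustment over 13800 genes. Standard errors were taken as the absolute log2 value divided by the root of F. CPM values use TMM-scaled sizes. The code was tested on simulated data. The members, the gene lists, the marker lists and the comparisons were chosen with earlier results of these data known. Every member could be named; of the related lists, at most 4 genes per list and comparison with the smallest p past the threshold were named, and exceptions are marked. The alternatives were library-size scaling, RLE size factors, no low-count filter, a mean CPM of at least 5, the compared groups alone, a replicate block, DESeq2 1.42.0, and each library left out in turn. Promoters came from RefSeq (GRCm38.p6), and overlaps between genes from GENCODE M21, in which all 37 members were found and 32 had the same start and end. The 10 macrophage, 10 stromal, 7 adipocyte, 8 dendritic cell, 8 neutrophil, 8 T and NK cell and 7 B and plasma cell markers checked the labelled cell type.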

Additional observations from a re-analysis of the deposited data

Results flagged for a closer look

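Gramd1b, whose protein carries cholesterol from the plasma membrane to the endoplasmic reticulum, was the one gene among the 37 members and the 42 related genes tested whose response to Pg differed between genotypes by the test of the difference itself. That was 1 of the 42 related genes (2.38%) and 0 of the 37 members, against 0.717% of all tested genes. A single call cannot be told from that background share. The levels of Gramd1b by library were as follows. It was at 218, 241 and 226 CPM in the cKO Pg libraries, against 124, 119 and 129 CPM in the cKO controls, and at 204, 194 and 191 CPM in the cHet Pg libraries, against 136, 141 and 154 CPM in the cHet controls. The response was 0.88 ± 0.06 in cKO and 0.45 ± 0.06 in cHet, a difference of 0.43 ± 0.09 on the log2 scale (adjusted p 0.0345, edgeR, 3 libraries per group). The call was lost in 10 of 18 alternatives, with adjusted p from 0.0022 to 0.127 and values from 0.38 to 0.46 over the 18. Of these, 9 left out 1 library: any but cKO Pg 3, cHet Pg 1 and cHet control 1 (0.38 to 0.46, adjusted p 0.0532 to 0.127).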

How the results depend on the processing

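Over 52 gene and comparison pairs past the threshold, 864 of 980 values under the alternatives kept their direction and their side of it, 114 missed it and 2 turned in sign: with library-size scaling Npc2 was at -0.061 in cHet (adjusted p 0.393) and Acly, an enzyme that makes acetyl-CoA, at -0.051 in cKO (adjusted p 0.521). The cause was not tested in any of these. Many of the 980 values leave out a library outside the groups compared, which hardly moves the log2 value. The 864 that held are therefore no measure of how stable the calls are. With library-size scaling 15 members passed with Pg in cKO and 16 in cHet, 1 between genotypes in controls and 1 on average, and the members' median with Pg was -0.30 in cKO and -0.39 in cHet. Under Pg 2 members passed between genotypes with no low-count filter and 1 with DESeq2; in controls these were 1 and 2. On average over treatments 1 passed with RLE size factors and 1 with a mean CPM of at least 5, where 36 members were tested. Without the 4 libraries apart in Itgax the counts were 22 with Pg in cKO, 23 in cHet, 4 between genotypes under Pg, 3 in controls, 5 on average and 2 for the interaction; with the Itgax covariate they were 16, 16, 7, 2, 5 and 4. Leaving out 1 library gave 1 to 10 members with Pg in cKO, 4 to 9 in cHet, 0 to 1 between genotypes under Pg (1 without cKO Pg 3 or cHet control 1), 0 to 1 in controls (1 without cHet control 1), 0 to 3 on average and 0 for the interaction. For the alternatives in this paragraph, shares of all genes are given only for library-size scaling with Pg and for the fits that use Itgax. The other counts stand without a background. Counts of 6 to 36 for Fdps limit its precision.

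The replicate numbers showed no clear pairing of the libraries: deviations of same-numbered libraries from their group means correlated at -0.291 to 0.319 over 18 pairs of groups and numbers, 5 of them over 0.1, and 6 correlated best with their own number. The library of each group that stands apart in Itgax weighs heavily on these deviations. This check therefore cannot tell if equal numbers share an animal or a day. With a replicate block 7 members passed with Pg in cKO, 6 in cHet and 0 on average between genotypes, where Abca1 was at 0.15 (adjusted p 0.0776) and Scd1 at -0.54 (adjusted p 0.0539), and the Gramd1b interaction had an adjusted p of 0.0739. The share of all genes that passed with this block is not given here.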

Other observations

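Among the related genes not described so far, the fatty acid and sterol side held a few calls in edgeR's test. Aacs, which makes acetoacetyl-CoA for lipid synthesis, was at 17.8, 17.6 and 18.4 CPM in the cKO Pg libraries, against 19.2, 22.8 and 24.1 CPM in the cKO controls, and at 19.2, 17.2 and 17.3 CPM in the cHet Pg libraries, against 21.9, 23.8 and 22.6 CPM in the cHet controls. It fell by 0.30 ± 0.10 on the log2 scale in cKO and 0.35 ± 0.10 in cHet (adjusted p 0.0256 and 0.0102), with no overlap of the groups. Lbr, a lamin B receptor that is also a sterol reductase, was at 45.7, 48.7 and 48.3 CPM in the cKO Pg libraries, against 37.5, 38.0 and 38.1 CPM in the cKO controls, a rise of 0.33 ± 0.07 (adjusted p 0.0013). With library-size scaling that value was 0.08 (adjusted p 0.353).

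Cav1 was lower in cKO than in cHet under Pg, at 17.4, 21.4 and 19.1 CPM in the cKO Pg libraries, against 26, 26.8 and 29.5 CPM in the cHet Pg libraries, a difference of -0.51 ± 0.12 (adjusted p 0.0438). That call was lost without any 1 of the 6 Pg libraries (-0.59 to -0.44, adjusted p 0.0612 to 0.206), and also without cKO control 3 or cHet control 2 (-0.51 in each, adjusted p 0.0592 and 0.0588). With a replicate block it was also lost (-0.51, adjusted p 0.0818), as with a mean CPM of at least 5 (-0.52, adjusted p 0.0616), which makes 10 of 19 alternatives. Scarb1 was at 63.1, 60.7 and 69.9 CPM in the cKO Pg libraries, against 88.7, 75.1 and 72.4 CPM in the cHet Pg libraries. In the cKO controls it was at 62.1, 75.4 and 66.2 CPM, against 84.6, 90.9 and 98.4 CPM in the cHet controls, and no cKO library reached a cHet library of its treatment.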
